A study of Mus musculus with 4 samples.

Results

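Type I interferon-stimulated genes were followed in RNA from Langerhans cells, antigen-presenting cells that live in the epidermis. The 38 genes were given as a list of symbols, and each was found as 1 row among the 55487 genes of the count table. The cells were isolated from ears of wild-type mice whose ears received Vaseline (negative control, 2 libraries) or imiquimod (2 libraries), a Toll-like receptor 7 agonist used to provoke psoriasis-like skin inflammation. All 4 libraries hold total RNA of the same labelled cell type and genotype. Strain, age, dose and duration of treatment are not given in the sources used here, nor is it stated that each library is a different animal. The p-values therefore weigh the difference between groups against the spread of these libraries within a group, and that spread may be technical.

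Type I interferons bind a receptor made of Ifnar1 and Ifnar2 and act through the kinases Jak1 and Tyk2. These phosphorylate Stat2, which joins Irf9 in a complex called ISGF3. ISGF3 binds interferon-stimulated response elements in promoters and switches on genes that sense, bind or destroy viral RNA, modify proteins with the ubiquitin-like protein Isg15, and feed back on the pathway. Plasmacytoid dendritic cells are the best known source of type I interferon after Toll-like receptor 7 is engaged.

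The response element can be seen in the promoters of the members. RefSeq promoter windows on GRCm38.p6, from 250 bases before to 50 after each annotated start, were matched for 28 members and not for the other 10. The core of the element, GAAA followed by any 2 bases and GAAA again, was searched on both strands, and overlapping matches were counted. It was present for 14 of the 28 matched members (50%), against 3.99% of 27025 genes and 3.44% of 32851 windows. A gamma-activated site, TTCNNNGAA, an element of interferon-gamma responses that reads the same on both strands, was present for 6 of the 28 (21.4%), against 9.55% of genes. The gene list was compiled as interferon-stimulated, so the share holding the element is a description of the list. The 250 bases upstream of the start are printed below in lower case for the 6 members of smallest p among those holding the core. Capitals mark each match. The windows are Ifit1 on the plus strand of chr19:34640639-34640888, Rsad2 on the minus strand of chr12:26456453-26456702, Ifit3 on the plus strand of chr19:34583279-34583528, Ddx60 on the plus strand of chr8:61927837-61928086, Ifit3b on the plus strand of chr19:34607707-34607956, and Isg15 on the minus strand of chr4:156200819-156201068.
Ifit1: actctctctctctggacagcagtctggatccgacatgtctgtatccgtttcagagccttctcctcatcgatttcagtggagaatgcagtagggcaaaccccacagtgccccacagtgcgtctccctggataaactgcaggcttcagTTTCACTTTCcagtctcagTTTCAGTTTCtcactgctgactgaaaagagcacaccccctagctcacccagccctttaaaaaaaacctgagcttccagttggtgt
Rsad2: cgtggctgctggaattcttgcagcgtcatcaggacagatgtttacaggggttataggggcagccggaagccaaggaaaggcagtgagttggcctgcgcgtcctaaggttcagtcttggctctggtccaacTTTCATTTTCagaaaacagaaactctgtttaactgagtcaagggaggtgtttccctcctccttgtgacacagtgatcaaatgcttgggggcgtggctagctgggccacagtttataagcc
Ifit3: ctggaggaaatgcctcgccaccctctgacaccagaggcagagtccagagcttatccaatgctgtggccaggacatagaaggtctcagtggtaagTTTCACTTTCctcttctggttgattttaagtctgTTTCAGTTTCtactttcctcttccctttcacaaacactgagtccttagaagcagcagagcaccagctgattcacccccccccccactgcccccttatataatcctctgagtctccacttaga
Ddx60: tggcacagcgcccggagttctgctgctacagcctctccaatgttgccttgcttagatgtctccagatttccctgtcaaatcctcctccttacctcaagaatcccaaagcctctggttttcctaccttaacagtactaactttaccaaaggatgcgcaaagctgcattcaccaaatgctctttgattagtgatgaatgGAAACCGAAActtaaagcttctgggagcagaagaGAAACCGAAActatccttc
Ifit3b: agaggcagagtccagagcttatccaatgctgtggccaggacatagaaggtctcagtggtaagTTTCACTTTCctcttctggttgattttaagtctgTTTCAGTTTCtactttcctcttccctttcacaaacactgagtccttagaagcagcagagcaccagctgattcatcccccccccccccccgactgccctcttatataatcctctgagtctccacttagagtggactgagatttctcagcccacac
Isg15: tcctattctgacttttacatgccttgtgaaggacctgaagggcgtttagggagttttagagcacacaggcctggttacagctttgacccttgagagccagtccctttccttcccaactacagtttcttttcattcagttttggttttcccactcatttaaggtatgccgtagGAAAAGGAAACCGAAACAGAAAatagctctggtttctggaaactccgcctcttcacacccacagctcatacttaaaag
In Ifit1 the 2 matches begin 104 and 85 bases upstream of the start, both read on the strand opposite the gene. The Ifit3 and Ifit3b windows carry the same pair of matched 10-letter words in the same order, beginning 156 and 122 bases upstream in Ifit3 and 188 and 154 in Ifit3b. Isg15 holds 3 overlapping matches, beginning 78, 72 and 66 bases upstream. Stat2, a subunit of ISGF3 itself, has 1 match, beginning 222 bases upstream.

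**Figure D1:**
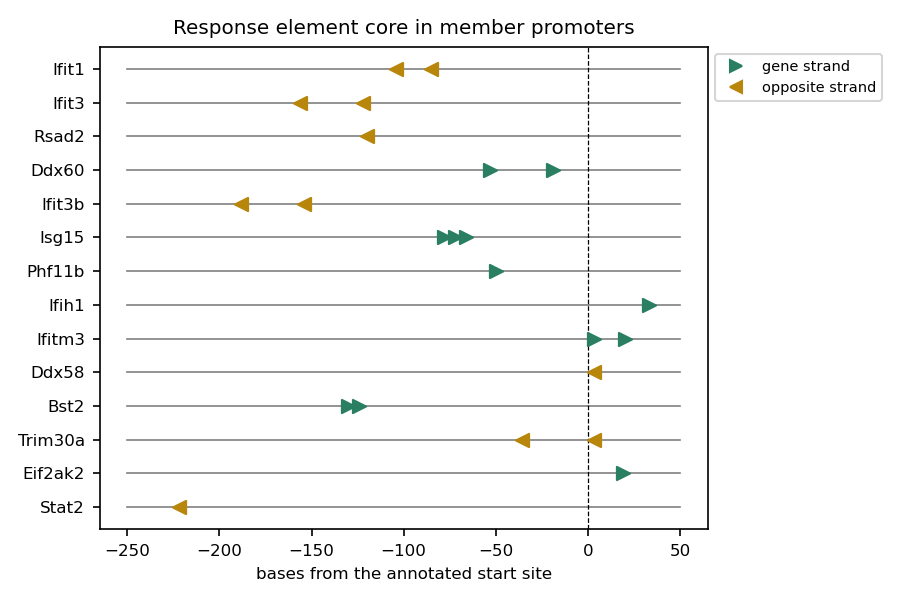
Position of each match to the response element core (triangles, pointing right on the gene strand and left on the opposite strand) in bases from the annotated start site (dashed line) for the 14 members that hold it, ordered by fold change. Isg15 shows 3 matches, 78, 72 and 66 bases upstream; the 2 annotated starts of Trim30a are drawn on 1 line.

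Depth differed 5.10-fold between libraries, from 14902782 counts (imiquimod 1) and 20690182 (imiquimod 2) to 41998172 (Vaseline 1) and 76028955 (Vaseline 2). A low level of reads spread over genes with no known use in skin differed between libraries. The median over 1768 olfactory and vomeronasal receptor genes was 0.377, 0.0913, 0.526 and 1.26 CPM (counts scaled to library size) per exonic kilobase in Vaseline 1, Vaseline 2, imiquimod 1 and imiquimod 2, and is called the background below. TMM scaling factors, which set the effective library size, were 0.955, 0.598, 1.05 and 1.66 in the same order. With them the median log2 fold change (imiquimod over Vaseline) of the 39439 genes tested was 0.41, against 0.16 with RLE factors and 1.30 on library totals. Genes were therefore also fitted alone where their mean ratio to background over the 4 libraries was at least 5. That fit held 14605 genes with a median of 0.08, and is called the fit of genes above background. Vaseline 2, with the lowest background, weighs most in that mean. All 38 members passed the filter on low counts, and 29 met the background bound. Of these 29, Ifit1 met it through the imiquimod libraries (mean ratio 4.68 with Vaseline and 7.63 with imiquimod), and 6 met it through the Vaseline libraries. The 9 below it were Ifit3b, Mx1, Mx2, Ifi44, Ddx60, Cmpk2, Xaf1, Rtp4 and Zbp1.

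No member passed in the comparison of imiquimod with Vaseline by the edgeR quasi-likelihood test at adjusted p under 0.05, in either direction. Of all genes tested 0.0634% were called higher and 0.137% lower. Without adjustment, 8 members were higher (p under 0.05; 21.1%, against 8.63% of all genes tested): Ifit1, Ifit3, Ddx60, Mx1, Rsad2, Rtp4, Ifi27l2a and Irf7. On the same rule 1 was lower, Samd9l, against 5.1% of all genes. DESeq2 also called no member, where it called 0.0152% of all genes tested higher and 1.69% lower. It gave no adjusted p for 18 members, and 6 were higher at an unadjusted p under 0.05, against 1.17% of all genes. Among genes above background edgeR called 0 genes of any kind, with 16 of the 29 members higher at an unadjusted p under 0.05 against 5.46% of genes in that fit, and 0 lower against 4.78%. DESeq2 on the same genes called 7 of the 29 (24.1%) higher, Ifit1, Ifit3, Ifi27l2a, Ifih1, Rsad2, Irf7 and Helz2, where it called 0.664% of genes higher, and 0 lower, where it called 1.07% of genes lower. Without imiquimod 1 it called 11 members higher of 359 genes called higher in all, and without imiquimod 2 it called 7 of 445. Without Vaseline 1 it called 3 of 76 (Ifit1, Ifit3 and Irf7), and without Vaseline 2 it called 1 of 26 (Ifit1). Each of these fits leaves 1 group with a single library, which is assumed to vary like the other group. Ifit1, which met the background bound through the imiquimod libraries, is 1 of the members counted as higher in every fit of genes above background.

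The members differed among themselves. On TMM-normalised CPM, 18 of 38 (47.4%) had both imiquimod libraries above both Vaseline libraries, against 30.5% of all genes tested. In 3 members, Irf1, Stat2 and Samd9l, both imiquimod libraries lay below both Vaseline libraries (7.89%, against 20.9%), and 17 overlapped. On the same CPM, 10 of the 29 members above background did not overlap upward, against 5.56% of genes in that fit. The same 3 did not overlap downward, against 50.3%. Scaled instead to the effective library sizes of the fit of genes above background, 24 of the 29 did not overlap upward. The share over all genes was not worked out on that scale, so this count cannot be read as a result about the members. Irf1 and Stat2 overlapped on library totals and with the background taken off each count. On library totals 32 of 38 members did not overlap upward, against 45.6% of all genes, and 23 of the 29 above background, against 23.6%. The log2 fold change was positive in 28 members (73.7%, against 60.6% of all genes). The median of the members was 0.47, which is 0.06 above the median of all genes tested. That gap turned to -0.71 without Vaseline 1 and -0.37 without imiquimod 1, and was 0.56 without Vaseline 2 and 0.55 without imiquimod 2. For members above background it was 0.92, which is 0.85 above the median of the genes in that fit, and 28 of 29 were positive against 55.7% of genes. Across the fits that held them, 18 members kept a positive sign, Samd9l kept a negative sign, and 19 changed sign with the scaling, the test or the libraries used. The 9 members below the background bound, Ifi44 among them, were absent from the fits of genes above background, so their signs rest on fewer fits. The share of all genes that kept a sign was not worked out. With 2 libraries against 2, an exact two-sided permutation test of a single gene cannot go below p = 0.333.

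**Figure D2:**
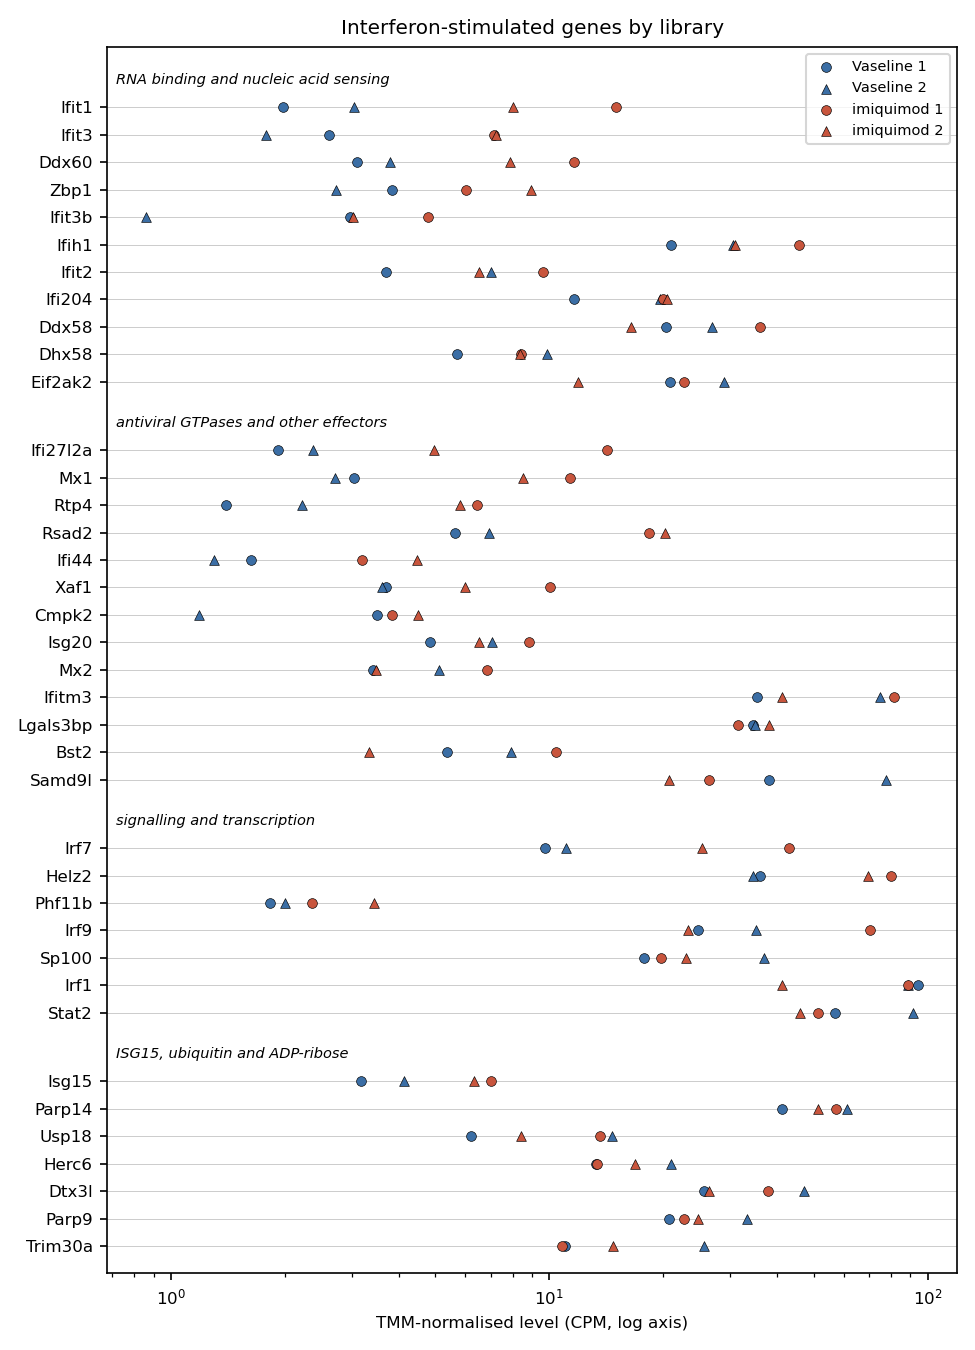
TMM-normalised level of each member (CPM, log axis) in Vaseline 1 and 2 (blue) and imiquimod 1 and 2 (red), with circles for replicate 1 and triangles for replicate 2, grouped by role and ordered by fold change. In 18 members both red points lie to the right of both blue points, as for Ifit1, Mx1 and Irf7, and in Irf1, Stat2 and Samd9l they lie to the left.

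The IFIT proteins bind viral RNA and block its translation, and their genes lie side by side on chromosome 19. Ifit1 (ENSMUSG00000034459; chromosome 19, 34640871 to 34650009 on GRCm38, as for the positions that follow) had levels of 1.97 and 3.04 CPM with Vaseline and 15.01 and 7.997 with imiquimod, each pair in the order of replicates 1 and 2. Both imiquimod libraries lay above both Vaseline libraries. Its log2 fold change of 2.16 (SE 0.64) was the highest among the members, with an edgeR adjusted p of 0.121. Among genes above background the value was 2.93 (edgeR adjusted p = 0.298). Since Ifit1 entered that fit only through the group where it was higher, its DESeq2 call there depends on the difference itself. Ifit3 had 2.62 and 1.78 CPM with Vaseline and 7.16 and 7.24 with imiquimod, a difference of 1.71 on the log2 scale (SE 0.66, adjusted p = 0.278). Ifit3b had 2.97 and 0.859 CPM with Vaseline and 4.79 and 3.04 with imiquimod. The Ifit3b groups were separated only narrowly, by the gap between Vaseline 1 and imiquimod 2. Of the 50-base words in the longest Ifit3 transcript, 51.2% occur also in Ifit3b, so the reads of this pair may have been exchanged and their values are uncertain. Ifit2 overlapped between groups on TMM-normalised CPM, at 3.69 and 7.02 with Vaseline and 9.65 and 6.51 with imiquimod (log2 fold change 0.56, adjusted p = 0.6001). Its imiquimod libraries were both higher on library totals, as in 45.6% of all genes tested. They were also higher with the background taken off each count, as in 22.2%. Among genes above background its log2 fold change was 1.38 (edgeR adjusted p = 0.449).

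Sensors of foreign RNA and DNA differed among themselves. Ifih1 and Ddx58 encode MDA5 and RIG-I, helicases that detect double-stranded and 5′-triphosphate RNA, and Dhx58 encodes LGP2, which tunes them. Ifih1 (ENSMUSG00000026896; chromosome 2, 62595798 to 62646255) had levels of 20.99 and 30.5 CPM with Vaseline and 45.7 and 30.9 with imiquimod. The higher Vaseline and the lower imiquimod library were nearly level, and the log2 fold change was 0.57 (SE 0.61, adjusted p = 0.596). It was 1.34 among genes above background, where DESeq2 gave an adjusted p of 0.0204. On TMM-normalised CPM, Ddx58 had 20.3 and 26.9 with Vaseline and 36.1 and 16.4 with imiquimod, the latter on either side of both controls. Dhx58, at 5.69 and 9.86 CPM with Vaseline and 8.43 and 8.38 with imiquimod, overlapped too. In Ddx58 and Dhx58 both imiquimod libraries were higher on library totals, as in 45.6% of all genes tested. They were also higher with the background taken off each count, as in 22.2%. Among genes above background the log2 fold changes were 0.84 and 0.96 (edgeR adjusted p = 0.480 and 0.489). Ddx60, a helicase that acts with RIG-I, had 3.09 and 3.79 CPM with Vaseline and 11.6 and 7.88 with imiquimod, without overlap. Its level was 0.901 times the background in Vaseline 1, however, and 2.85, 2.67 and 1.20 times in Vaseline 2 and imiquimod 1 and 2. Zbp1, a sensor of Z-form nucleic acids that can start necroptosis, did not overlap either, at 3.84 and 2.73 CPM with Vaseline and 6.01 and 8.96 with imiquimod (log2 fold change 1.22, adjusted p = 0.371). Eif2ak2 encodes PKR, a kinase that halts translation on double-stranded RNA, and was the 1 sensor with a negative fold change, -0.55 (0.19 among genes above background). Ifi204, a DNA sensor of the HIN-200 family, had 11.6 and 19.6 CPM with Vaseline and 20.00 and 20.5 with imiquimod, and shares 30.2% of its words with paralogs such as Ifi211. Of these 11 RNA-binding and sensing members, 10 had a positive fold change, where 60.6% of all genes tested did, and 7 did not overlap upward, where 30.5% did not. Their median was 0.57, against 0.41 for all genes, and none passed.

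Antiviral effectors held several of the members with the highest fold changes. Mx1 and Mx2 are dynamin-like GTPases that trap viral ribonucleoproteins. Mx1 (ENSMUSG00000000386; chromosome 16, 97447035 to 97462907) had 3.04 and 2.71 CPM with Vaseline and 11.4 and 8.52 with imiquimod, without overlap (log2 fold change 1.78, SE 0.64, adjusted p = 0.232). Its neighbour Mx2, annotated as a polymorphic pseudogene, overlapped at 3.42 and 5.11 against 6.84 and 3.47 TMM-normalised CPM. Mx2 overlapped with the background taken off each count too, but not on library totals, where 45.6% of all genes tested did not overlap upward. Mx1 and Mx2 both lay below the background bound. Rsad2 (ENSMUSG00000020641; chromosome 12, 26442746 to 26456452) encodes viperin, a radical SAM enzyme that makes a chain-terminating nucleotide, and lies beside Cmpk2, a nucleotide kinase that supplies its substrate. Rsad2 had 5.62 and 6.93 CPM with Vaseline and 18.3 and 20.3 with imiquimod. The imiquimod libraries were close to each other and far above the controls, and the log2 difference was 1.62 (SE 0.60, adjusted p = 0.256). Among genes above background it had 2.44, with a DESeq2 adjusted p of 6.71e-05. Cmpk2 stood at 3.49 and 1.19 CPM with Vaseline and 3.83 and 4.49 with imiquimod, at most 2.12 times the background in any library.

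Ifi27l2a, a small mitochondrial and nuclear membrane protein, had 1.92 and 2.38 CPM with Vaseline and 14.2 and 4.96 with imiquimod. The 2 imiquimod libraries differed more from each other than imiquimod 2 did from the controls, and the log2 fold change was 2.10 (SE 0.66, adjusted p = 0.153, or 1.18e-04 by DESeq2 among genes above background). Rtp4, a chaperone of membrane receptors, had 1.40 and 2.22 CPM with Vaseline and 6.45 and 5.81 with imiquimod. Xaf1, a pro-apoptotic protein, had 3.69 and 3.61 CPM with Vaseline and 10.03 and 5.98 with imiquimod. Neither overlapped, with log2 fold changes of 1.74 and 1.10 (adjusted p = 0.284 and 0.399). Ifi44 had a log2 fold change of 1.43, but its level was 0.669, 1.39, 1.04 and 0.961 times the background in Vaseline 1 and 2 and imiquimod 1 and 2, so these reads cannot be told apart from background. Ifitm3, which blocks fusion of virus with the endosome, had the highest level of the members per length, 81.2 CPM per exonic kilobase as the mean with Vaseline and 90.7 with imiquimod. Its library levels were 35.3 and 74.7 CPM with Vaseline and 81.7 and 41.3 with imiquimod, so that its groups overlapped. Bst2, or tetherin, which holds budding virus at the cell surface, overlapped too, at 5.37 and 7.92 against 10.4 and 3.33 CPM. The secreted glycoprotein Lgals3bp had a mean of 34.8 CPM in each group, and Isg20, an RNA exonuclease, overlapped at 4.84 and 7.04 against 8.82 and 6.51 CPM. These values are TMM-normalised. On library totals both imiquimod libraries were higher in Ifitm3, Bst2, Lgals3bp and Isg20, as in 45.6% of all genes tested. With the background taken off each count they were higher in Ifitm3, Lgals3bp and Isg20, as in 22.2%, and Bst2 overlapped. Among genes above background Ifitm3, Lgals3bp and Isg20 had log2 fold changes of 0.92, 0.81 and 1.14, and none passed the edgeR test.

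Samd9l had the lowest fold change of the members. It encodes a restriction factor of poxviruses that also restrains cell growth and endosomal signalling. Samd9l (ENSMUSG00000047735; chromosome 6, 3372257 to 3399572) had 38.1 and 77.6 CPM with Vaseline and 26.4 and 20.7 with imiquimod, both imiquimod libraries below both controls. Its log2 difference was -1.30 (SE 0.64, adjusted p = 0.356 by edgeR). It was -0.47 among genes above background (adjusted p = 0.597). Of the 13 effectors, 11 had a positive and 2 a negative fold change, the second being Bst2 at -0.030 (0.70 among genes above background). Their median was 0.86, against 0.41 for all genes tested, and 7 did not overlap upward, where 30.5% of all genes did not.

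**Figure D3:**
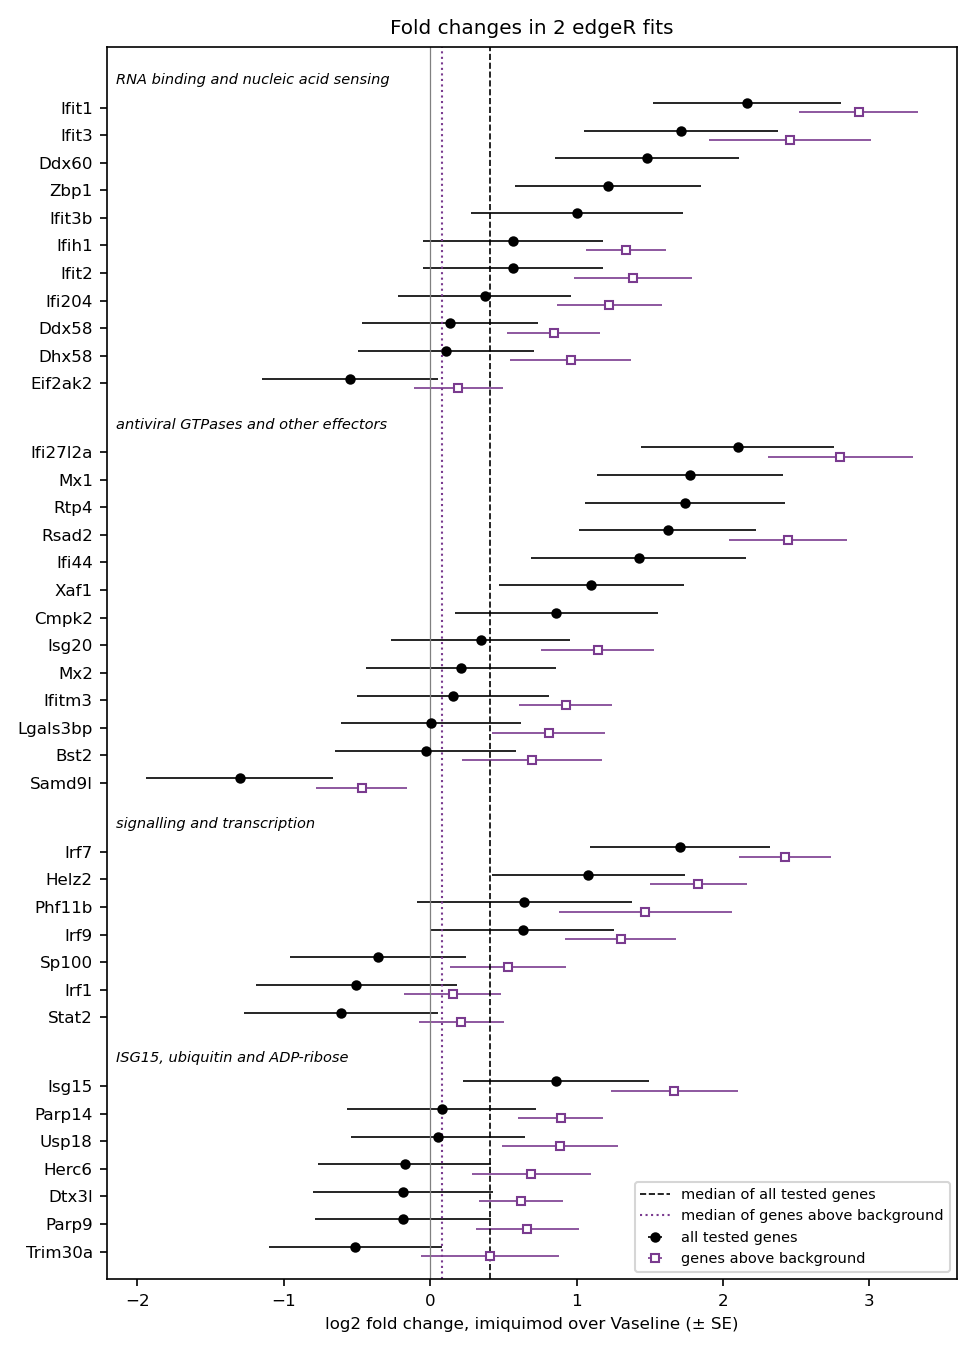
Log2 fold change, imiquimod over Vaseline, of each member with its standard error, from the edgeR fit of all tested genes (filled circles) and of genes above background (open squares, 29 members). The dashed and dotted lines mark the medians of all genes in each fit, 0.41 and 0.08, and Samd9l is the 1 member below 0 in both fits.

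Among signalling and transcription genes, Irf7 had a higher log2 fold change than the ISGF3 subunits Irf9 and Stat2. Irf7, which amplifies interferon-alpha transcription downstream of Toll-like receptor 7 (ENSMUSG00000025498; chromosome 7, 141262706 to 141266481), had levels of 9.76 and 11.1 CPM with Vaseline and 43.1 and 25.3 with imiquimod. The Vaseline libraries were close together and both imiquimod libraries lay well above them. The log2 fold change was 1.71 (SE 0.61, adjusted p = 0.232), and 2.43 among genes above background (edgeR adjusted p = 0.214, DESeq2 adjusted p = 2.16e-07). Irf9 had 24.8 and 35.1 CPM with Vaseline and 70.5 and 23.3 with imiquimod. The log2 fold change of Irf9, 0.63, was -0.44 without imiquimod 1, and 1.30 among genes above background (edgeR adjusted p = 0.449). Its groups overlapped on TMM-normalised CPM. Both imiquimod libraries were higher on library totals, as in 45.6% of all genes tested. They were also higher with the background taken off each count, as in 22.2%. Stat2 had 56.8 and 91.3 CPM with Vaseline and 51.2 and 46.1 with imiquimod. Irf1, which also answers interferon-gamma, had 94.6 and 88.8 CPM with Vaseline and 88.6 and 41.3 with imiquimod, with Vaseline 2 and imiquimod 1 nearly level. Their log2 fold changes were -0.61 and -0.50 (adjusted p = 0.599 and 0.672), but 0.21 and 0.15 among genes above background and 0.27 and 0.18 on library totals. Helz2, a helicase that coactivates nuclear receptors, did not overlap, at 36.1 and 34.6 CPM with Vaseline and 79.99 and 69.5 with imiquimod (log2 fold change 1.08, SE 0.66, adjusted p = 0.415). DESeq2 gave Helz2 an adjusted p of 0.00172 among genes above background. Sp100, a nuclear body protein, overlapped. Phf11b, which shares 47.05% of its words with paralogs, had 1.82 and 2.003 against 2.36 and 3.44 CPM.

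Ratios of counts within a library do not depend on the scaling between libraries. Irf7 per count of Stat2 was 0.172 and 0.121 with Vaseline and 0.843 and 0.549 with imiquimod, a 4.75-fold difference of the mean ratios without overlap. Per count of Irf1 the Irf7 values were 0.103 and 0.124 with Vaseline and 0.487 and 0.612 with imiquimod. Irf9 per count of Stat2 was 0.437 and 0.385 with Vaseline and 1.38 and 0.506 with imiquimod, high in imiquimod 1. Within a gene family, the ratio of Ifit1 to Ifit2 was 0.534 and 0.433 with Vaseline and 1.56 and 1.23 with imiquimod, and that of Mx1 to Mx2 was 0.891 and 0.530 with Vaseline and 1.66 and 2.45 with imiquimod. None of these ratios overlapped between groups. These pairs were chosen after their values were seen. The background is still part of such counts. At its lowest, Ifit1 stood at 1.88 times the background in Vaseline 1 and Ifit2 at 2.19 times in imiquimod 2. Mx1 stood at 2.03 times in Vaseline 1 and Mx2 at 1.27 times in imiquimod 2. Taken against Stat2, 30 of the other 37 members were higher in both imiquimod libraries without overlap, where 40.5% of all genes tested were, and 1 was lower, where 10.3% were. Of the 28 above background 21 were, where 13.2% of genes above background were.

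**Figure D4:**
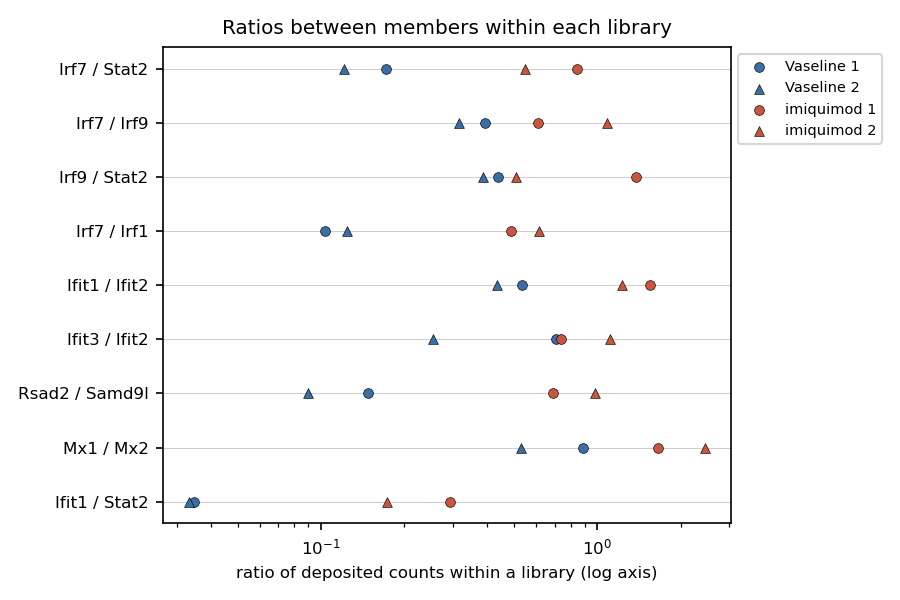
Ratios of deposited counts between pairs of members within each library (log axis), with blue for Vaseline, red for imiquimod, circles for replicate 1 and triangles for replicate 2. For Irf7 over Stat2 the Vaseline libraries lie at 0.172 and 0.121 and the imiquimod libraries at 0.843 and 0.549; no pair shown overlaps, and the closest groups are those of Ifit3 over Ifit2.

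The ISG15 and ubiquitin group had the lowest median of the 4 roles, -0.17, and 0.69 among genes above background. Isg15, the ubiquitin-like modifier, had 3.17 and 4.12 CPM with Vaseline and 7.03 and 6.30 with imiquimod, without overlap (log2 fold change 0.86, SE 0.64, adjusted p = 0.473). On TMM-normalised CPM it was the 1 member of these 7 whose groups did not overlap, where 30.5% of all genes tested did not overlap upward. On library totals Usp18, Parp14, Parp9, Dtx3l and Herc6 did not overlap upward either, where 45.6% of all genes did not. With the background taken off each count Usp18, Parp14, Parp9 and Dtx3l did not, where 22.2% of all genes did not. Usp18, which removes Isg15 from proteins and blocks signalling at Ifnar2, had 6.21 and 14.6 CPM with Vaseline and 13.6 and 8.43 with imiquimod, so that its groups overlapped (log2 fold change 0.055, adjusted p = 0.963). Herc6, the mouse ligase for Isg15, Parp9 and Dtx3l, partners in ADP-ribosylation and ubiquitylation of histones, and Trim30a, which limits NF-kappaB signalling, had log2 fold changes from -0.51 to -0.17. Parp14, a mono-ADP-ribosyltransferase, had 0.079. In the fit of genes above background all 7 were positive, from 0.41 for Trim30a to 1.67 for Isg15, and none passed (lowest edgeR adjusted p = 0.427). Parp9 and Dtx3l are neighbours on opposite strands and share 9.4% and 8.0% of their exonic bases, and 23.8% of the Herc6 words occur in the overlapping gene Gm45193, so part of these counts could not be assigned with certainty.

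Taking the background off each count, a description with no test, left 28 of 38 members with both imiquimod libraries above both controls, against 22.2% of all genes tested. Of the 29 above background 21 did so, against 13.5% of genes above background. On that scale Ifit1 had 0.9002 and 1.80 net CPM with Vaseline and 15.3 and 10.4 with imiquimod. Mx1 had 1.51 and 1.46 against 10.6 and 9.78. The groups of both members were apart, whereas Ifi44 was left at -0.784, 0.248, 0.139 and -0.313 net CPM in Vaseline 1 and 2 and imiquimod 1 and 2. Net CPM is scaled to the effective totals of the fit of genes above background.

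Genes upstream of the members did not pass, with 1 exception. Of 20 type I and III interferon genes none passed in either direction, 17 had a positive fold change, and the highest level of any of them in any library was 3.41 CPM. Ifnk, the interferon of keratinocytes, had 2.15 and 3.41 CPM with Vaseline and 1.53 and 2.98 with imiquimod. Ifnb1, or interferon-beta, had 0.299 and 0.991 CPM with Vaseline and 2.17 and 1.11 with imiquimod (log2 fold change 1.20, adjusted p = 0.488). Ifnk was the 1 ligand above the background bound. Of 11 receptor and JAK-STAT genes none passed and 10 had negative fold changes, with a median of -0.86, or -0.04 among genes above background. The receptor chains Ifnar1 and Ifnar2 had -1.12 and -0.86 (adjusted p = 0.444 and 0.486). Of 20 sensors, adaptors and kinases none passed, 3 were positive and 17 negative, with a median of -0.71, or 0.01 among genes above background. Tlr7 itself had 3.29 and 2.22 CPM with Vaseline and 1.98 and 2.51 with imiquimod, at a mean of 1.85 times the background. Of 13 negative regulators Trex1 rose and none fell. Trex1, an exonuclease that clears DNA from the cytosol, had 0.624 and 0.506 CPM with Vaseline and 11.9 and 3.33 with imiquimod (log2 fold change 3.68, SE 0.79, adjusted p = 0.00440 by edgeR, and 0.311 by edgeR and 1.75e-07 by DESeq2 among genes above background). All of its exonic bases (100%) are shared with Atrip on the same strand, so its counts cannot be placed with certainty. Socs1, an inhibitor of JAK kinases, had 32.8 and 67.2 CPM with Vaseline and 22.7 and 13.98 with imiquimod (adjusted p = 0.319).

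Markers of the labelled cell and of other cells also differed between these libraries, and their part in the members' values was not tested. All 13 Langerhans cell markers were detected and had negative fold changes (median -2.15; -1.25 among genes above background), and none passed. Their summed level was 22971 and 42360.4 with Vaseline and 9684 and 12508 with imiquimod, as CPM on the effective totals of genes above background. Langerin (Cd207) had 2255 and 6883 CPM with Vaseline and 1201 and 575 with imiquimod. On TMM-normalised CPM the 38 members came to 603 and 870 with Vaseline and 938 and 678 with imiquimod, and the groups overlapped. On the scale of the sums they came to 589 and 596 with Vaseline and 1048 and 1174 with imiquimod. The background, highest in imiquimod 2, is part of all these sums. The sums that follow are on the effective totals of genes above background. Neutrophil markers summed to 25.2 and 40.2 with Vaseline and 84.7 and 438 with imiquimod. Of these, 9 of 10 had positive fold changes, against 60.6% of all genes tested, and S100a8 rose (adjusted p = 0.0193 by edgeR). Only 4 of the 10 met the background bound, 3 positive and 1 negative in that fit. Activated keratinocyte markers summed to 347 and 521 with Vaseline and 1632 and 843 with imiquimod, with 8 of 8 tested positive and Lcn2 past the threshold (adjusted p = 3.98e-04 by edgeR). The 8 plasmacytoid dendritic cell markers summed to 74.3 and 46.8 with Vaseline and 70.9 and 140.4 with imiquimod, with 1 of them (Tcf4) above the background bound. Siglech, which defines that cell, stood at 2.57 and 2.99 against 3.26 and 4.06 CPM, and Cox6a2 and Cd300c of that list had no count in imiquimod 1, nor had the neutrophil gene Camp and the T cell cytokine Il17a. Defb3, an epidermal defensin, had counts in imiquimod 2 alone. Monocyte and T cell markers overlapped between groups, the former at 233 and 216 with Vaseline and 158 and 391 with imiquimod and the latter at 253 and 182 with Vaseline and 168 and 210.5 with imiquimod. Basal and suprabasal keratinocyte markers summed to 15100.1 and 12702 with Vaseline and 16055 and 6579 with imiquimod. Fibroblast and endothelial markers came to 51.1 and 101 with Vaseline and 42.7 and 136 with imiquimod, and 3 of these 8 met the background bound. Melanocyte markers came to 14.1 and 6.53 with Vaseline and 16.4 and 35.05 with imiquimod, and 0 of these 5 met it. Mitochondrially encoded transcripts, a mark of RNA quality, had a median log2 fold change of -1.28, or -0.34 among genes above background. In these bulk libraries fewer cells of a type and less RNA per cell cannot be told apart.

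**Figure D5:**
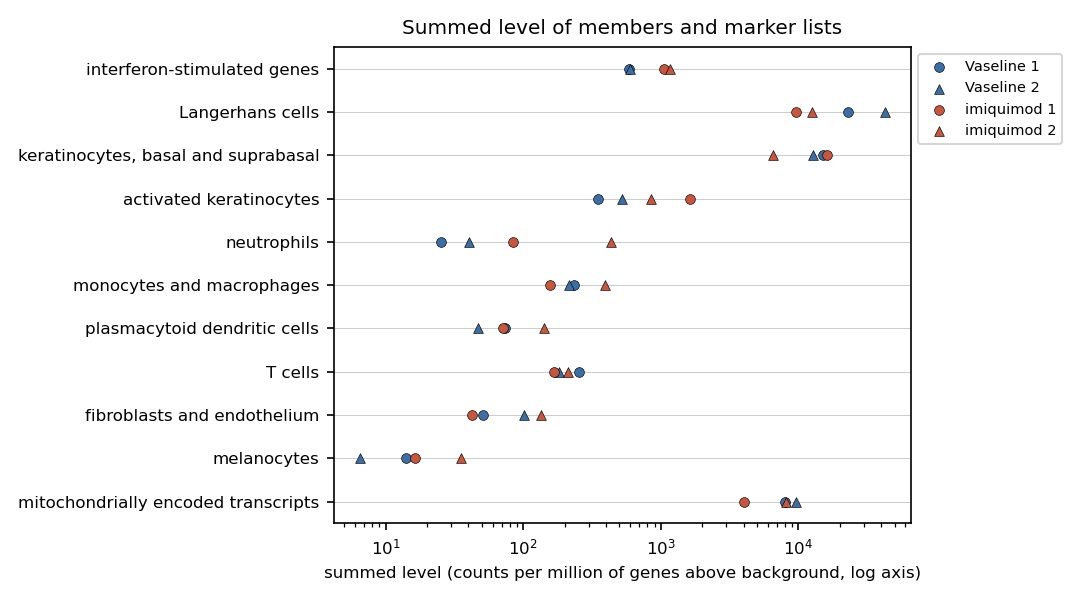
Summed level of the 38 members and of each marker list in each library (CPM on the effective totals of genes above background, log axis), with blue for Vaseline and red for imiquimod, circles for replicate 1 and triangles for replicate 2. The members lie at 589 and 596 with Vaseline and 1048 and 1174 with imiquimod, while the Langerhans cell markers are lower in both imiquimod libraries. On TMM-normalised CPM, not drawn here, the sums of the members overlap between groups.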

How the data were processed

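Total RNA of 4 libraries was analysed. Per the labels' protocols, libraries were made from 10 to 70 ng of RNA with a stranded low-input total RNA kit. Per the submitters' processing notes, the authors used Trimmomatic, HISAT2, SAMtools and StringTie on GRCm38; versions, annotation release, strand setting and treatment of multi-mapped reads are not given in the sources used here. The deposited values are whole-number counts per Ensembl gene.

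Counts were tested with the quasi-likelihood test of edgeR 4.0.16 (R 4.3.3; current form with legacy off, TMM factors, two-sided, Benjamini-Hochberg over 39439 genes kept by filterByExpr with minimum count 10 and minimum total 15; threshold 0.05). DESeq2 1.42.0 was the second test. SE was derived from the fold change and its F statistic. Exon lengths came from GENCODE vM21, which held 55227 of the 55487 genes. Shared sequence is the percentage of 50-base words of a member's longest transcript found in transcripts of other genes. Promoters are from RefSeq. Counting error was small beside the spread between libraries: replicates differed by a chi-square of 91.7 (Vaseline) and 86.1 (imiquimod) for each degree of freedom, and the biological coefficient of variation 0.607.

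The members and gene lists were chosen with earlier results of these data known. All members are named; of other lists, genes past the threshold or of high level, and Ifnar1, Ifnar2, Ifnb1, Tlr7, Socs1, Siglech and Cd207 for their role. Alternatives are other scalings, DESeq2, no filter, genes above background, a replicate block and leaving out each library.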

Additional observations from a re-analysis of the deposited data

How the results depend on the processing

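The count of members called stayed at 0 in each direction under every alternative run with edgeR on all 4 libraries, and under DESeq2 on all genes tested. The edgeR alternatives called few genes of any kind, so a 0 there tells little about the members. Genes called higher and lower were 17 and 14 of 39439 with RLE factors and 8 and 5 on library totals. They were 3 and 5 with the older quasi-likelihood form and 1 and 0 with the replicate block. With no filter they were 0 and 0 of 51889, and among genes above background 0 and 0 of 14605. DESeq2 on genes above background, an alternative added after seeing the data, called 7 higher and 0 lower. With each library left out in turn, which leaves 1 group with a single library, it called 1 to 11 members, where it called 26 to 445 genes higher in all. The median log2 fold change of the members, 0.47, was 0.17 with RLE factors, 1.31 on library totals, 0.19 with DESeq2, 0.92 among genes above background and 0.89 there with DESeq2. It was 1.00 with the background taken off each count, over the 36 members left above 0 in each library, and ran from 0.038 (without Vaseline 1) to 0.72 (without Vaseline 2) with a library left out. The members' median less that of all genes, 0.06, was -0.71 without Vaseline 1, -0.37 without imiquimod 1, 0.56 without Vaseline 2 and 0.55 without imiquimod 2. Leaving out the 7 members that share at least 10% of their sequence gave a members' median of 0.34, below the 0.41 of all genes tested. The count of members whose groups did not overlap upward was 18, against 30.5% of all genes tested. It was 32 on library totals, against 45.6%, and 28 net of background, against 22.2%. With a library left out it was 18 to 29. Of the 29 members above background, 24 did not overlap upward on the scale of that fit. The share over all genes was not worked out for these last 2 settings, so their counts cannot be read as a result about the members.

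Signs of single members changed as follows. With RLE factors the values were -0.13 for Ddx58, -0.19 for Dhx58, -0.14 for Ifitm3, -0.26 for Lgals3bp, -0.081 for Mx2, -0.21 for Parp14 and -0.26 for Usp18. With DESeq2 they were -0.10 for Ddx58, -0.19 for Dhx58, -0.13 for Ifitm3, -0.26 for Lgals3bp, -0.21 for Parp14 and -0.23 for Usp18. With no filter Lgals3bp had -0.082, Parp14 -0.018 and Usp18 -0.051. The 9 members with a negative value other than Samd9l turned positive on library totals, among genes above background and there with DESeq2, in that order 0.71, 0.70 and 0.66 for Bst2, 0.67, 0.62 and 0.58 for Dtx3l, 0.23, 0.19 and 0.16 for Eif2ak2, 0.76, 0.69 and 0.66 for Herc6, 0.18, 0.15 and 0.12 for Irf1, 0.72, 0.66 and 0.63 for Parp9, 0.60, 0.53 and 0.50 for Sp100, 0.27, 0.21 and 0.18 for Stat2, and 0.49, 0.41 and 0.37 for Trim30a. Bst2 had 0.037 with the older quasi-likelihood form. With a library left out, signs changed within the ranges -0.0019 to 0.63 for Isg20, -0.38 to 0.68 for Mx2, -0.44 to 1.24 for Irf9, -0.53 to 0.79 for Usp18, -0.60 to 0.62 for Ddx58, -1.08 to 0.65 for Bst2, -0.49 to 0.78 for Ifitm3, -1.13 to 0.19 for Trim30a, -0.35 to 0.53 for Dhx58, -0.30 to 0.37 for Parp14, -0.61 to 0.17 for Parp9, -0.67 to 0.30 for Dtx3l, -0.59 to 0.15 for Herc6, -0.074 to 0.77 for Ifi204, -0.13 to 0.055 for Lgals3bp and -0.92 to 0.24 for Sp100. The cause was not tested.

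Vaseline and imiquimod libraries share replicate numbers, but nothing in the labels pairs them, and deviations of same-numbered libraries correlated at -0.331 across genes. The replicate block left the count of members called at 0 and the median at 0.43, and gave Lgals3bp -0.00062. The crossed pairing also called 0 members, and 0 genes in all.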

Other observations

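Paralogs of the members and genes that lean to interferon-gamma were read as separate groups. Of 31 paralogs tested none passed the edgeR test in either direction, 17 had a positive and 14 a negative log2 fold change, and the median was 0.13, or 0.52 for the 19 above background. Those of highest level were Ifi207 at 124 and 265 CPM with Vaseline and 114 and 61.7 with imiquimod, Herc4 at 103 and 129 against 81.01 and 54.2 CPM, and Ifitm2 at 36.3 and 51.3 against 41.1 and 32.2 CPM. Ifitm2 overlapped between groups, and in Ifi207 and Herc4 both imiquimod libraries lay below both Vaseline libraries. Phf11d, singled out after its values were seen, had 5.91 and 7.70 CPM with Vaseline and 13.5 and 9.31 with imiquimod, without overlap. It had an adjusted p of 0.509 by edgeR, and of 0.0344 by DESeq2 among genes above background.

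Of 10 interferon-gamma leaning genes none passed, 5 were positive and 5 negative, and the median was -0.02, or 0.72 for the 6 above background. Ciita, the transactivator of MHC class II genes, had 126 and 361 CPM with Vaseline and 44.8 and 76.3 with imiquimod (log2 fold change -2.00, adjusted p = 0.289). Icam1, an adhesion molecule, overlapped at 297 and 451 against 572 and 183 CPM. Cxcl10, a chemokine that both interferon types induce, had 5.32 and 13.1 against 19.2 and 8.93 CPM.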
